A study of Drosophila melanogaster with 40 samples.

Results

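The comparison set 4 libraries from the legs of trained w1118 males against 4 libraries from untrained w1118 males of the same age, 8 of the 40 libraries of the series. They were chosen by their labels alone (strain w1118, age 23 days, treatment given as training or as none). w1118 is a white-eyed laboratory strain, here from the Vienna stock centre. Trained flies were turned in tubes that rotated every 15 s on 19 days, from day 4 to day 22 after eclosion, in sessions lengthened over the first days, and their legs were taken 24 h after the last session. Untrained flies received no treatment. The second strain of the series, called Hsp70-null here, carries Df(3R)Hsp70A and Df(3R)Hsp70B in the w1118 background, deletions of 6 Hsp70 genes, and its 8 libraries of day 23 (4 trained, 4 untrained) are used only for comparison. Each library is 1 pool of the legs of 15 males, so the spread given below is between pools and not between flies, and a leg holds muscle, cuticle, nerve, trachea, fat body and blood cells together. The labels name neither the hour at which untrained legs were taken nor how untrained flies were handled during sessions.

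A fly climbs by negative geotaxis, and turning the tube makes it climb again, so repeated turning is used as endurance training. In animals, endurance training is known for effects on mitochondria, muscle structure, protein turnover and stress responses, and the families followed here were taken from those processes and from the main secreted, detoxifying and sensory gene families of a leg. Samples taken a day after the last session ask which differences outlast the session itself.

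No single feature met the threshold. The edgeR quasi-likelihood test, with p-values adjusted over all 12939 features tested and a threshold of 0.05, called 0 features (0% of those tested). At an unadjusted p under 0.05 there were 837 features, 483 lower after training (3.73% of those tested) and 354 higher (2.74%), where 647 are expected with no difference. That excess depended on the libraries used. A fit of the 8 compared libraries alone gave 354, where 560 are expected. With 1 library left out the count ran from 290 (without untrained replicate 2) to 1630 (without untrained replicate 1), where 684 are expected in both. DESeq2 called 5 features and had 928 at an unadjusted p under 0.05. Those 5 were near 0 in nearly every library. CG31068 and CG31406 had 110 and 161 counts in trained replicate 1 and 0 in the other libraries, while CG15116, Sems and CG44388 had at most 6 counts in an untrained library and 0 in all trained ones. The log2 fold changes of all features had a median of 0.02, and 46.1% lay below 0. All 4 trained libraries lay below all untrained ones for 132 features (1.02%) and above them for 116 (0.897%). With no difference and no ties, 4 libraries separate from 4, in either direction, with a probability of 0.0286. The shares seen were thus no larger than with no difference.

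Small differences of 1 sign ran through several families instead, in fewer of them once 1 library was left out. The 31 families hold 919 genes, of which 837 could be tested and 82 were too low. None of the 837 was called, against 0% of all features. Of them 592 had a log2 fold change below 0, beside 46.1% of all features. An unadjusted p under 0.05 was reached by 105 (12.5%), 94 of them lower and 11 higher after training, beside 3.73% and 2.74% of all features. All trained libraries lay below all untrained ones for 16 of the 837 and above them for 5, beside 1.02% and 0.897% of all features. Family medians lay below 0 for 21 of 31 families, and for 14 they lay more than 0.1 from 0 in either direction. Without untrained replicate 2, the library described next, those counts were 19 and 6, and without it and trained replicate 1 they were 16 and 5. No family was given a test of its own.

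Of the 8 libraries, 2 stood apart from the rest and are carried through the results. Untrained replicate 2 had a median absolute log2 distance of 0.256 from the mean of the other libraries, against 0.0975 to 0.134 for those. Mitochondrial transcripts made up 12.2% of its counts and 5.91% to 7.71% elsewhere, and 12 of 13 neuron markers were at their lowest in it. Trained replicate 1 held the highest level of 28 of 31 testis markers, whose sum was 1466 CPM there and 300.3 to 454 CPM in the other libraries. Of that sum, bol alone held 185 to 231 CPM in untrained libraries and 207 to 291 CPM in trained ones. The median deviation of the testis markers was 5.98 in trained replicate 1, 2.90 in untrained replicate 1 and −1.61 to −0.93 in the rest, so untrained replicate 1 was raised too. CPM is the count scaled to library size after TMM normalization. Total counts ran from 22329878 to 28714396, and the 2 groups overlapped in depth. Muscle markers were found in all libraries, with 12 of 12 detected in each and a summed level of 15423 to 18788 CPM untrained and 16921 to 18317 CPM trained. Counts of the 6 near-identical Hsp70 copies summed to 44, 274, 99 and 240 in untrained replicates 1 to 4 and to 46, 31, 71 and 33 in trained replicates 1 to 4. The groups overlapped, and untrained replicates 2 and 4 were high.

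Genes of the cytosolic ribosome, the machine that makes proteins in the cytoplasm, held the most genes at an unadjusted p under 0.05. Of 88 genes 85 were tested, 81 lay below 0, and the median log2 fold change was −0.23. An unadjusted p under 0.05 was reached by 33 genes on the lower side and 1 on the higher side, beside 3.73% and 2.74% of all features. Summed over the list, the level was 45892, 59989, 42932 and 38299 CPM in untrained replicates 1 to 4 and 35864, 38981, 46535 and 39349 CPM in trained replicates 1 to 4. The groups overlapped, with untrained replicate 2 the highest of all 40 libraries of the series and trained replicate 3 above untrained replicates 1, 3 and 4. Without untrained replicate 2 the median was −0.09 (70 of 85 below 0, a level 5.77% lower), and without that library and trained replicate 1 it was −0.04 (60 below 0).

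RpL5, a large-subunit protein that binds 5S ribosomal RNA, had the highest level of the list over all 40 libraries. It was at 1349, 1965, 1214 and 1114 CPM in untrained replicates 1 to 4 and at 972, 1069.6, 1264 and 1125 CPM in trained replicates 1 to 4. The groups overlapped. Its log2 fold change was −0.35 (SE 0.13, 95% interval −0.62 to −0.07, edgeR adjusted p = 0.698), and −0.15 without untrained replicate 2. RpS15Ab, a second gene for a small-subunit protein, was the 1 member whose groups did not overlap, where 1.02% of all features had all trained libraries below. Its level was 26.5, 38.9, 24.0 and 23.5 CPM untrained and 19.9, 21.6, 22.5 and 21.5 CPM trained, a log2 fold change of −0.40 (SE 0.12, edgeR adjusted p = 0.698) that was −0.21 without untrained replicate 2. Because RpS15Ab has a close copy in RpS15Aa, the division of reads between both is uncertain.

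Other parts of the translation machinery differed less. The 75 genes of the mitochondrial ribosome, which makes the proteins encoded in mitochondrial DNA, had a median of −0.11 with 69 below 0, and a median of 0.00 with 37 below 0 once untrained replicate 2 was left out. mRpS18A and mRpL44 were the members whose groups did not overlap, where 1.02% of all features had all trained libraries below and 0.897% all above. mRpL44 was at 22.6, 25.2, 23.0 and 21.6 CPM untrained and at 18.0, 19.8, 21.5 and 21.5 CPM trained (log2 fold change −0.19, SE 0.09, edgeR adjusted p = 0.698), so the lowest untrained and the highest trained library nearly met. Translation factors had a median of −0.03 (24 of 35 below 0). Aminoacyl-tRNA synthetases, which charge tRNAs with amino acids, had a median of −0.04 (14 of 18 below 0) and −0.05 without untrained replicate 2. Among them the groups of LysRS, the lysine enzyme, did not overlap. It was at 27.9, 28.8, 29.2 and 29.7 CPM untrained and 25.1, 25.5, 27.7 and 27.0 CPM trained (log2 fold change −0.14, SE 0.08, edgeR adjusted p = 0.698).

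**Figure D1:**
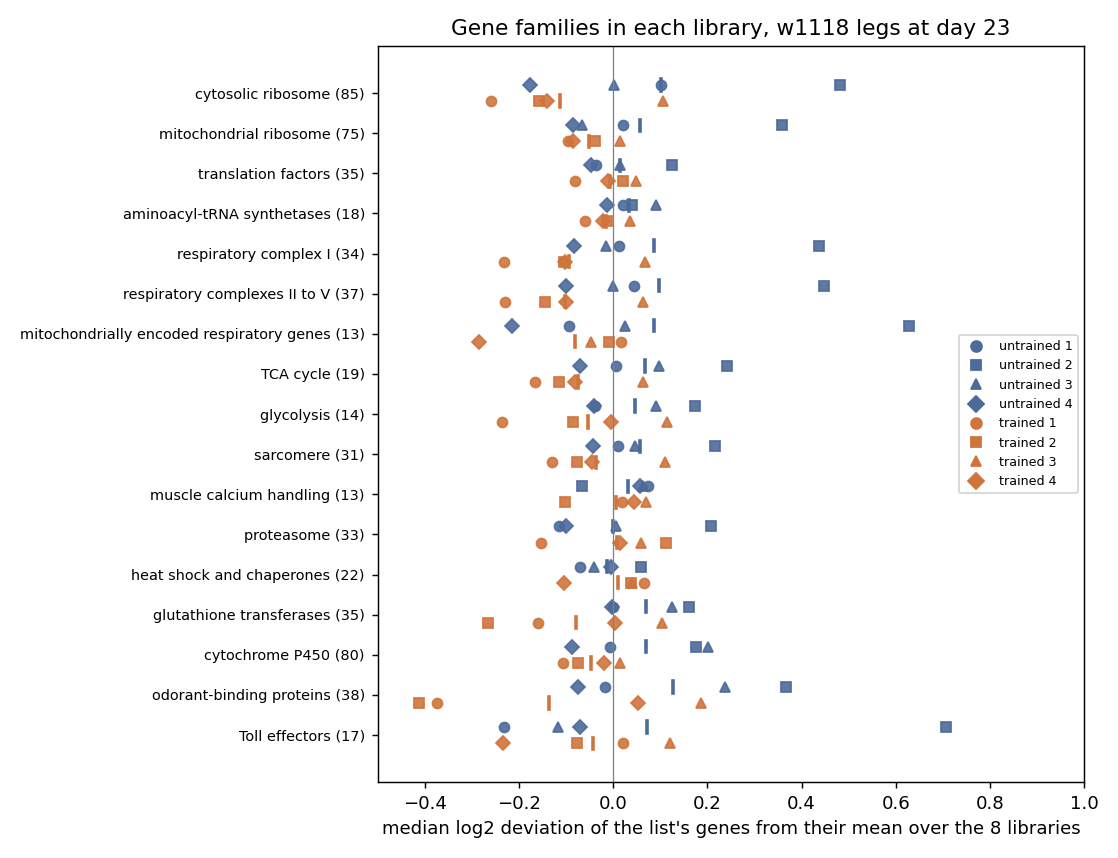
Median log2 deviation of each family's genes from their mean over the 8 libraries (x axis), for 17 families (y axis, number of genes tested in brackets). Points are libraries, vertical bars are group means, and the groups overlap in every row. Untrained replicate 2 lies at 0.48 for the cytosolic ribosome and 0.44 for complex I, to the right of all other libraries.

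Nuclear genes of the respiratory chain, which carries electrons and makes ATP in mitochondria, lay below 0 almost without exception. All 34 tested genes of complex I, which takes electrons from NADH, lay below 0, with a median of −0.20 (13.2% lower). For complexes II to V, which include ATP synthase, 36 of 37 lay below 0, with a median of −0.20. An unadjusted p under 0.05 was reached on the lower side by 8 genes of complex I and 12 of complexes II to V, beside 3.73% of all features. Over all features that lower-side count was 483, and 91 without untrained replicate 2. The median deviation of complex I was 0.01, 0.44, −0.02 and −0.08 in untrained replicates 1 to 4 and −0.23, −0.10, 0.07 and −0.10 in trained replicates 1 to 4. Of the trained libraries 3 lay below all untrained ones and replicate 3 did not. Without untrained replicate 2 the medians were −0.06 and −0.08, with 28 of 34 and 34 of 37 genes below 0. Without both libraries they were −0.01 and −0.05.

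ATPsynbeta, the catalytic beta subunit of ATP synthase, was at 2514, 3309, 2375 and 2246 CPM in untrained replicates 1 to 4 and at 2183, 2316, 2313 and 2167 CPM in trained replicates 1 to 4. The trained pools lay within a narrow band, at the low end of the untrained ones. The log2 fold change was −0.22 (SE 0.12, 95% interval −0.46 to 0.03, edgeR adjusted p = 0.698). ND-51, which binds NADH in complex I, was at 1049, 1300.1, 1174 and 1102 CPM untrained and 909, 1023, 1204 and 1077 CPM trained (log2 fold change −0.13, SE 0.11, edgeR adjusted p = 0.714). ND-AGGG, an accessory subunit chosen here after its values were seen, had the lowest value of complex I, −1.03 (SE 0.35, edgeR adjusted p = 0.698). It was at 16.3, 33.4, 13.0 and 7.69 CPM untrained and 7.83, 7.93, 12.3 and 6.31 CPM trained, so its groups overlapped and untrained replicate 2 was far above the others.

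The 13 respiratory genes encoded in mitochondrial DNA had a median of −0.16, with 9 below 0, and 0.07 without untrained replicate 2. mt:CoI, the core subunit of cytochrome c oxidase, was at 11677, 19114, 11224 and 10568 CPM untrained and at 11954, 12479.5, 11094 and 11483 CPM trained. One untrained library was high and the other 7 lay close together (log2 fold change −0.16, SE 0.20, edgeR adjusted p = 0.805). All 19 genes of the TCA cycle, which feeds electrons to the chain, lay below 0, with a median of −0.13, and 16 did so without untrained replicate 2 (median −0.09). mAcon1, mitochondrial aconitase, was at 2247, 2412, 2397 and 2412 CPM untrained and 2198, 2230.3, 2228 and 2248 CPM trained. Untrained replicate 1 lay among the trained libraries and the other untrained ones above them (log2 fold change −0.09, SE 0.08, edgeR adjusted p = 0.721). All 14 glycolysis genes lay below 0 as well, with a median of −0.07 that was −0.02 without trained replicate 1 and 0.02 without both libraries. Ald1, the glycolytic aldolase, had a log2 fold change of −0.07 (SE 0.10, edgeR adjusted p = 0.837). Trehalose and glycogen genes, which hold the sugar reserves of a fly, had a median of −0.02 (11 of 13 below 0). Lipid storage and lipolysis genes had a median of −0.01 (14 of 21 below 0).

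Ribosomal and respiratory genes are short, and the deviation of 1 library ran most steeply with transcript length. Among 8308 protein-coding genes of known exon length with a mean of at least 5 CPM, the median log2 deviation of untrained replicate 2 was 0.29 in the shortest class (162 to 1404 bases), 0.12 and −0.04 in the middle classes and −0.27 in the longest (3893 bases and over). In the other 7 libraries it stayed between −0.14 and 0.07. Some of these ran the other way, with trained replicate 1 going from −0.14 in the shortest class to 0.05 in the longest. Untrained replicate 4 went from −0.07 to 0.07, and trained replicates 2 and 4 rose as well. The median log2 fold change of training went from −0.11 (79.3% below 0) in the shortest class to −0.05, 0.02 and 0.09 (17.1% below 0) in the following ones. Leaving out untrained replicate 2 gave −0.03, −0.01, 0.00 and 0.02, and leaving out trained replicate 1 as well gave −0.01, 0.00, 0.01 and 0.02. Without the ribosomal and respiratory lists the shortest class still had a median of −0.11 (77.4% below 0). Median exon length was 921 bases for the cytosolic ribosome and 844 bases for complex I, both within the shortest class, and 2530 bases for the sarcomere. The part of transcript length or RNA quality in the family values was not tested.

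**Figure D2:**
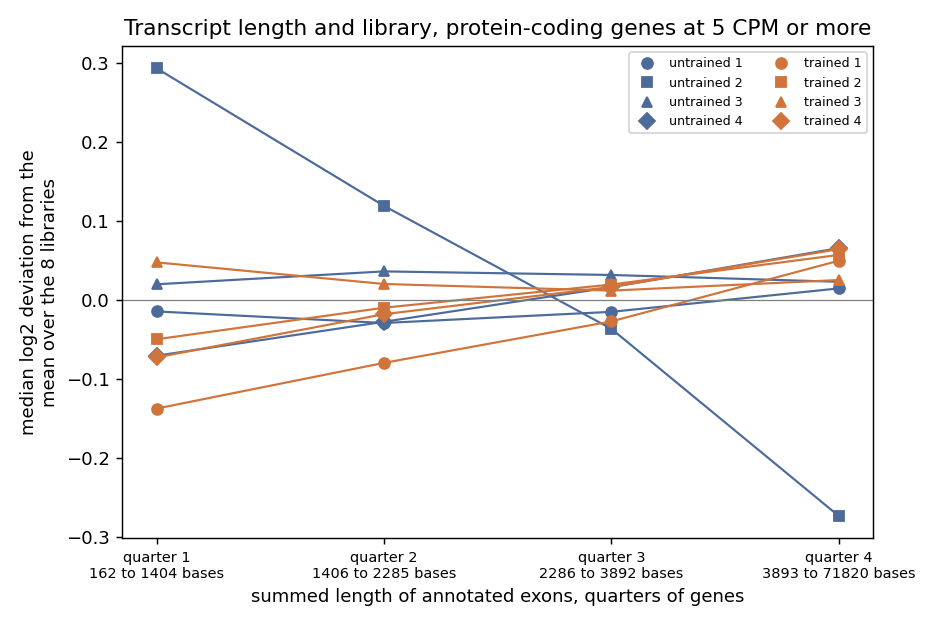
Median log2 deviation of each library from the mean of the 8 (y axis) for protein-coding genes in 4 classes of exon length (x axis, bases). Each line is 1 library, and untrained replicate 2 runs from 0.29 to −0.27 while the other 7 stay between −0.14 and 0.07.

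**Figure D3:**
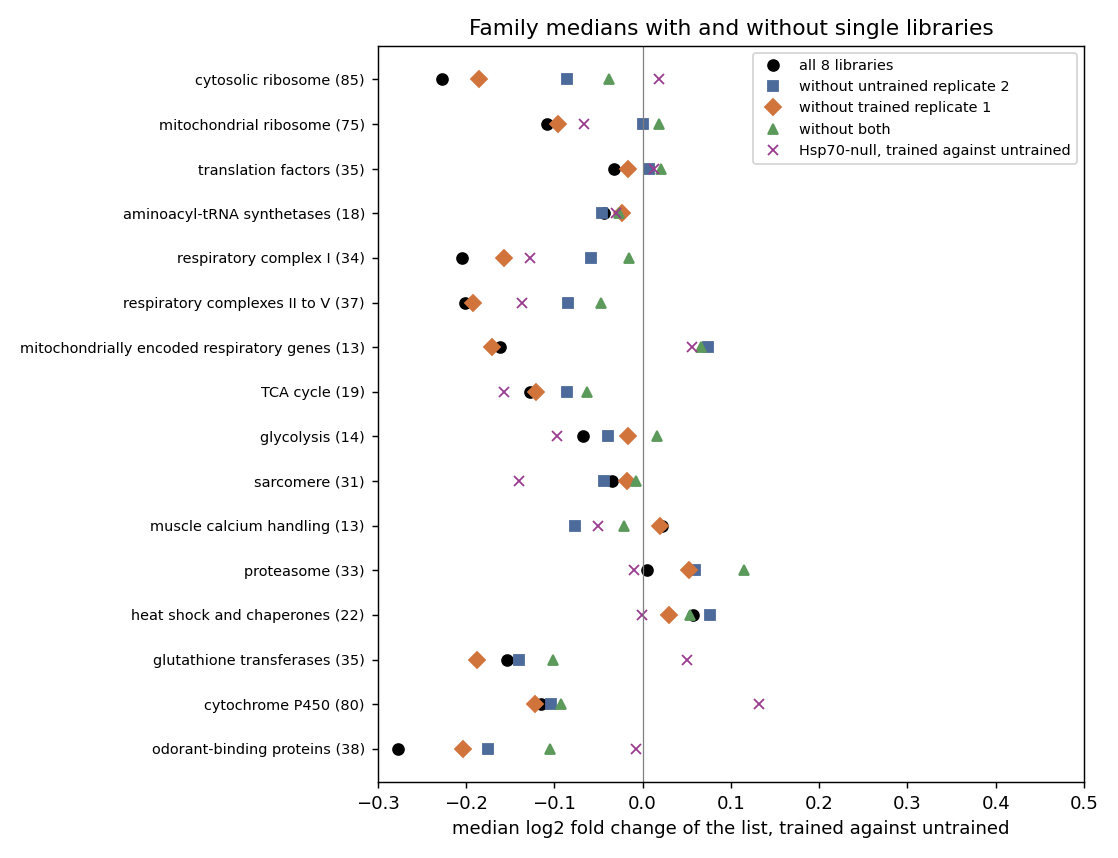
Median log2 fold change of training (x axis) for 16 families (y axis, number of genes tested in brackets) from all 8 libraries, without untrained replicate 2, without trained replicate 1, without both, and in the Hsp70-null strain. The cytosolic ribosome moves from −0.23 to −0.09 and complex I from −0.20 to −0.06 without untrained replicate 2, whereas glutathione transferases move from −0.15 to −0.14.

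Muscle structure showed little. The 31 sarcomere genes, which build the contractile filaments, had a median of −0.03 with 16 below 0. Mhc, muscle myosin heavy chain, was at 3095, 2119.6, 3678 and 3079.6 CPM untrained and at 2875, 2639, 3426 and 3275 CPM trained (log2 fold change 0.03, SE 0.17, 95% interval −0.31 to 0.37, edgeR adjusted p = 0.97). The groups overlapped fully. cpa and cpb, the capping protein subunits that hold actin ends at the Z-disc, were the members whose groups did not overlap. Over all features, 0.897% had all trained libraries above all untrained ones. cpb was at 41.5, 43.5, 44.7 and 42.5 CPM untrained and 45.3, 48.8, 49.7 and 48.1 CPM trained (log2 fold change 0.16, SE 0.07, edgeR adjusted p = 0.698). cpa was at 50.8, 49.6, 53.9 and 52.4 CPM untrained and 54.6, 56.9, 55.6 and 55.5 CPM trained (0.11, SE 0.08, edgeR adjusted p = 0.703). The values of both genes without untrained replicate 2 were 0.16 and 0.08.

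Genes of muscle calcium handling had a median of 0.02 (5 of 13 below 0), which was −0.08 without untrained replicate 2. SclA and SclB, both below 0, share their position and strand and had nearly the same counts, so they may hold the same reads. SERCA, the pump that returns calcium to the sarcoplasmic reticulum, was at 3948, 3842, 4107 and 3492 CPM untrained and 3338, 3201, 3745 and 3387 CPM trained. Of the trained libraries 3 lay below all untrained ones (log2 fold change −0.17, SE 0.13, edgeR adjusted p = 0.703). Cam, calmodulin, had groups that did not overlap, at 900.1, 876, 869 and 904 CPM untrained and 961, 983, 980.1 and 910.0 CPM trained (0.11, SE 0.10, edgeR adjusted p = 0.726), and it shares part of its strand with lncRNA:CR43900. All trained libraries lay above all untrained ones for 0.897% of all features. Basement membrane and integrin genes, which anchor muscle, had a median of 0.04 (5 of 18 below 0) and −0.04 without untrained replicate 2.

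Families of protein quality control were near 0. Proteasome genes had a median of 0.01 with 15 of 33 below 0, but 3 and 1 below 0 and medians of 0.06 and 0.11 without untrained replicate 2 and without both libraries. Rpn2, a large base subunit, was at 159, 146, 196 and 175 CPM untrained and 175, 197, 191 and 194 CPM trained (log2 fold change 0.16, SE 0.08, edgeR adjusted p = 0.698), with untrained replicate 3 inside the trained range. Heat shock genes and chaperones had a median of 0.06 (6 of 22 below 0). Hsc70-4, the main constitutive Hsp70 family member, was at 1659, 1633, 1619 and 1504 CPM untrained and 1592, 1750.4, 1677 and 1515 CPM trained, and the groups overlapped with trained replicates 2 and 3 the highest (0.03, SE 0.09, 95% interval −0.15 to 0.20, edgeR adjusted p = 0.944). Medians were −0.04 for the unfolded protein response (13 of 18 below 0), 0.02 for autophagy (11 of 25) and 0.01 for the V-ATPase (10 of 26), the proton pump of acid compartments.

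The medians of both large detoxification families stayed below 0 with any 1 library left out. So did those of other lists, among them the cytosolic ribosome, complex I, the TCA cycle and odorant-binding proteins. Of 35 glutathione transferases tested, which couple glutathione to toxic compounds, 30 lay below 0, with a median of −0.15 (10.1% lower). It was −0.14 without untrained replicate 2, −0.19 without trained replicate 1 and −0.10 without both, and ran from −0.23 to −0.10 with each library left out in turn, smallest without trained replicate 2. The median deviation per library was 0.00, 0.16, 0.12 and 0.00 in untrained replicates 1 to 4 and −0.16, −0.27, 0.10 and 0.00 in trained replicates 1 to 4, so trained replicates 1 and 2 were low and replicates 3 and 4 lay among the untrained ones. GstT2, of the theta class, was the member whose groups did not overlap, where 1.02% of all features had all trained libraries below. It was at 17.0, 21.7, 18.9 and 17.1 CPM untrained and 13.5, 12.8, 15.5 and 15.9 CPM trained (log2 fold change −0.37, SE 0.10, 95% interval −0.58 to −0.16, edgeR adjusted p = 0.698). GstD1, of the delta class and the most abundant one over all 40 libraries, was at 408, 466, 458 and 406 CPM untrained and 351, 357, 494 and 412 CPM trained (−0.11, SE 0.12, edgeR adjusted p = 0.791), and trained replicate 3 was its highest library.

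Cytochrome P450 genes, which oxidise foreign compounds, hormones and cuticle lipids, had a median of −0.12 with 60 of 80 below 0, and medians of −0.10, −0.12 and −0.09 in the same 3 settings. With each library left out in turn the median ran from −0.16 to −0.06, smallest without untrained replicate 3. Cyp12a5, Cyp4d8, Cyp4e3 and Cyp6a20 had all trained libraries below all untrained ones, 4 of 80 members against 1.02% of all features. Cyp4e3 was at 26.7, 36.4, 27.6 and 33.2 CPM untrained and 16.9, 22.8, 21.8 and 25.9 CPM trained (log2 fold change −0.50, SE 0.34, edgeR adjusted p = 0.698). Cyp6a20 was at 346, 427, 359.6 and 328 CPM untrained and 326, 310.2, 321 and 327 CPM trained (−0.19, SE 0.12, edgeR adjusted p = 0.698), where the closest libraries nearly touched. Cyp4g1, which makes cuticular hydrocarbons in oenocytes and was the most abundant member, overlapped, from 3034 to 5001 CPM untrained and from 2539.8 to 5456 CPM trained (−0.08, SE 0.52, edgeR adjusted p = 0.975). Antioxidant enzymes had a median of −0.07 (14 of 20 below 0) and −0.01 without untrained replicate 2.

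Turandot genes gave the largest family value and, of the 31 families, the only 1 whose per-library medians did not overlap. They encode small secreted proteins made under heat, infection and other stress through JAK-STAT signalling, and Socs36E, an inhibitor induced by the same signalling, was listed with them. Of 8 genes 5 were tested, and 4 lay below 0, with a median log2 fold change of −1.37 (61.2% lower). That median is the value of 1 gene, TotA, whose 95% interval ran from −2.87 to 0.14 and so included 0. Per library the median deviation was 1.80, 0.40, 0.25 and −0.11 in untrained replicates 1 to 4 and −0.83, −0.89, −0.23 and −0.45 in trained replicates 1 to 4. With no difference, a family's groups of 4 separate in either direction with a probability of 0.0286. Since 31 families were looked at, 1 that separates can arise with no difference. With each of the 8 libraries left out in turn the median ran from −1.57 to −0.81. The lowest size came without untrained replicate 1, whose summed level of 1225 CPM stood far above the 305 to 436 CPM of the other untrained and the 188 to 290.2 CPM of the trained libraries. That library also had the highest summed level of eye markers, 846 CPM against 135 to 314 CPM, whose part in the result was not tested.

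TotX, another Turandot gene, depended less on 1 library (3R, 20904917 to 20905518, minus strand, BDGP6.54). It was at 91.4, 115, 71.8 and 55.9 CPM in untrained replicates 1 to 4 and at 33.8, 41.0, 55.5 and 53.9 CPM in trained replicates 1 to 4. All trained pools lay below all untrained ones, as for 1.02% of all features, though the closest pair differed by less than 1 CPM. Its log2 fold change was −0.86 (SE 0.28, 95% interval −1.44 to −0.28, edgeR adjusted p = 0.698), and −0.67 without untrained replicate 2.

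TotA, the best known member, was at 702, 267, 243 and 191 CPM untrained and from 109 to 172 CPM in the trained libraries (log2 fold change −1.37, SE 0.74, edgeR adjusted p = 0.698). TotC, its neighbour on 3R, was at 295, 29.2, 42.2 and 26.5 CPM untrained and 16.7, 11.6, 22.1 and 20.3 CPM trained (−2.47, SE 0.91, edgeR adjusted p = 0.698). Neither gene's groups overlapped, where 1.02% of all features had all trained libraries below. For both the highest value was that of untrained replicate 1, without which the values were the smallest of all those leaving out 1 library, −0.78 and −0.89. TotM, on 2L, was at 105 CPM in that library and between 1.38 and 5.11 CPM in the other 7, which overlapped. Socs36E was at 30.7, 20.6, 33.3 and 29.4 CPM untrained and 31.0, 25.2, 37.8 and 29.8 CPM trained, and the groups overlapped (0.12, SE 0.16, edgeR adjusted p = 0.83).

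Antimicrobial genes were divided. Targets of Toll signalling, among them drosomycin-like and Bomanin genes, had a median of −0.16 (12 of 17 below 0) and 0.11 without untrained replicate 2. Drsl4, a drosomycin-like gene, did not overlap between groups, where 1.02% of all features had all trained libraries below. It was at 176, 253, 188 and 221 CPM untrained and 86.6, 98.6, 145 and 146 CPM trained (log2 fold change −0.81, SE 0.30, edgeR adjusted p = 0.698), and its value was −0.71 without untrained replicate 2. Drsl5, which lies next to it on 3L, was at 92.7, 124, 111 and 132 CPM untrained and 57.7, 54.1, 95.9 and 87.2 CPM trained (−0.64, SE 0.30, edgeR adjusted p = 0.698), with trained replicate 3 above untrained replicate 1. IM4, the most abundant Toll target listed, was at 309, 429, 332 and 413 CPM untrained and 519, 543, 428 and 344 CPM trained (0.31, SE 0.30, edgeR adjusted p = 0.748), so the family's members did not share 1 sign.

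Antibacterial peptides, made mainly through Imd signalling, had the widest intervals of the 31 families. AttC, an attacin, was at 24.1, 24.9, 276 and 119.6 CPM untrained and 44.0, 20.2, 338 and 137 CPM trained, a 95% interval of −1.78 to 2.34 around a log2 fold change of 0.28 (SE 1.01, edgeR adjusted p = 0.951). Replicates 3 and 4 were high in both groups. Def, a defensin, was at 30.8, 42.2, 33.5 and 54.7 CPM untrained and 15.7, 11.9, 24.1 and 20.5 CPM trained (−1.16, SE 0.51, edgeR adjusted p = 0.698). Its groups did not overlap, where 1.02% of all features had all trained libraries below.

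**Figure D4:**
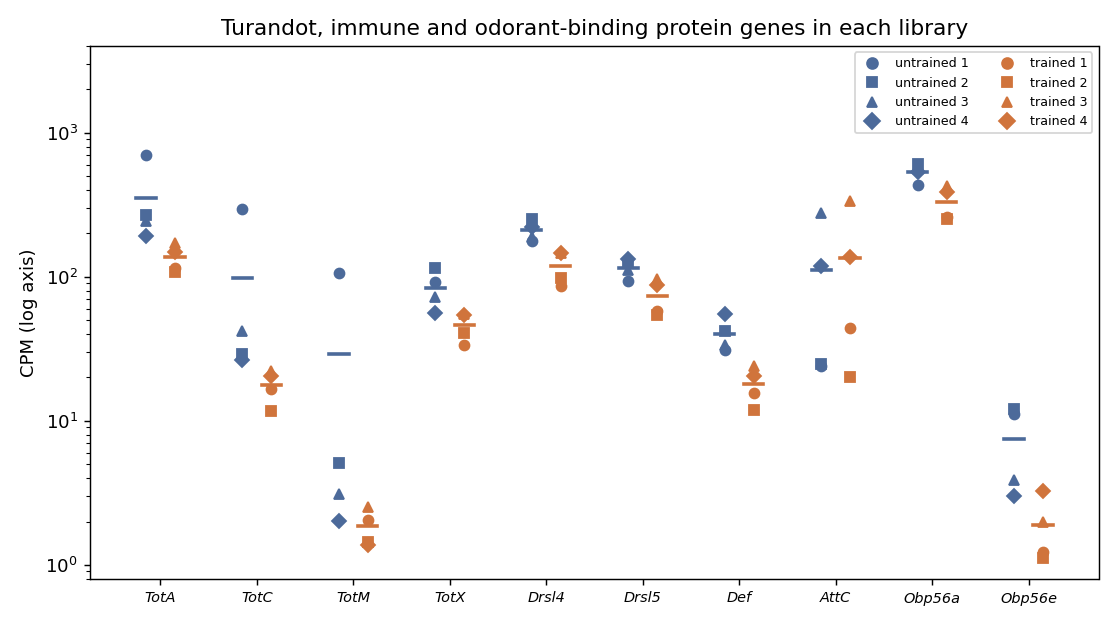
Level of 10 genes in each library (y axis, CPM on a log axis; x axis, genes), with bars at group means. TotA, TotC, TotX, Drsl4, Def and Obp56a have all trained libraries below all untrained ones, as do 1.02% of all features. Untrained replicate 1 lies far above the rest for TotA, TotC and TotM.

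Odorant-binding proteins carry odours and pheromones to receptors in sensory hairs, and many are made in leg sensilla. Of 52 genes 38 were tested, and 30 lay below 0, with a median of −0.28 (17.5% lower) that was −0.17 without untrained replicate 2 and −0.10 without both libraries. In single libraries the median deviation was −0.02, 0.37, 0.24 and −0.07 untrained and −0.37, −0.41, 0.19 and 0.05 trained, so trained replicates 1 and 2 were low and replicates 3 and 4 lay within the untrained range. Obp56a was at 437, 605, 563 and 536 CPM untrained and 261, 251, 429 and 388 CPM trained (log2 fold change −0.69, SE 0.24, 95% interval −1.17 to −0.21, edgeR adjusted p = 0.698). Its groups did not overlap, where 1.02% of all features had all trained libraries below. Obp56e, whose gene lies in the same cluster on 2R, had the lowest unadjusted p of the list and overlapping groups. It was at 11.1, 12.0, 3.87 and 2.99 CPM untrained and 1.23, 1.11, 1.98 and 3.24 CPM trained (−1.99, SE 0.52, edgeR adjusted p = 0.698). Obp56d, the most abundant member, was at 784, 1311, 952 and 770.4 CPM untrained and 595, 501, 972 and 839.9 CPM trained (−0.39, SE 0.23, edgeR adjusted p = 0.698), with trained replicate 3 above 3 of the untrained pools. Cuticle proteins of the Cpr family had a median of −0.07 (18 of 33 below 0). Of the 78 listed, 45 were too low to test.

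All 8 octopamine and tyramine receptors, through which the fly's counterpart of noradrenaline acts, lay above 0, with a median of 0.14, but 3 lay below 0 and the median was 0.06 without untrained replicate 2. Over the 13 neuron markers the median was 0.25, all above 0, and 0.12 without that library. Octbeta2R was at 54.1, 64.8, 64.0 and 64.7 CPM untrained and 66.3, 65.6, 64.1 and 62.3 CPM trained (log2 fold change 0.06, SE 0.08, 95% interval −0.11 to 0.23). Clock genes had a median of 0.14 (3 of 10 below 0) and 0.02 without untrained replicate 2. Energy sensing genes, among them AMPK and its partners, had a median of 0.05 (9 of 24 below 0), and activity-regulated genes a median of 0.02 (5 of 13). In a pool of whole legs, fewer cells of a type and less RNA per cell cannot be told apart for any of these families.

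By rule, the 8 features in each direction with the lowest unadjusted p were named among those with a mean of at least 5 CPM and no overlap of the groups. All 16 had an edgeR adjusted p of 0.698. Since p and overlap chose them, their values are descriptions. On the higher side these were 5-HT1B, CG5767, Vha100-4, CG8661, BORCS5, ear, slmb and CG6511. 5-HT1B, a serotonin receptor (2R, 19022325 to 19032642, minus strand, BDGP6.54), was at 8.69, 7.07, 9.73 and 10.2 CPM untrained and 15.3, 14.6, 16.5 and 13.7 CPM trained. The gap between the groups was wider than the spread within either. Its log2 fold change was 0.75 (SE 0.21, 95% interval 0.33 to 1.17), and 0.66 to 0.82 with each library left out in turn. slmb, an F-box protein that marks proteins for degradation, was at 85.7, 88.5, 90.2 and 90.2 CPM untrained and 97.3, 95.6, 97.6 and 92.0 CPM trained (0.11, SE 0.04).

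CG5767, CG8661 and Vha100-4, a V-ATPase subunit, shared a pattern. They were near 0 in all untrained pools and high in 3 of 4 trained ones. CG5767 was at 0.0328, 0.128, 0.0376 and 0.0405 CPM untrained and at 26.7, 11.3, 0.559 and 46.2 CPM trained. Vha100-4 was at 0.0328, 0.341, 0.225 and 0.243 CPM untrained and 16.2, 10.7, 0.43 and 17.4 CPM trained. Trained replicate 3 stayed close to the untrained level for all 3 genes. They passed the limit of 5 CPM through the trained libraries alone, so their difference is a description.

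On the lower side the rule gave CG3436, CG5104, GstT2, Naxd, CG7148, RpS15Ab, CG16700 and mth. mth, the methuselah receptor named for long life in mutants, was at 19.4, 20.6, 20.4 and 18.7 CPM untrained and 16.5, 16.3, 16.3 and 16.0 CPM trained. Its trained pools lay within 1 CPM of each other and below every untrained pool (log2 fold change −0.28, SE 0.09, 95% interval −0.46 to −0.10). CG16700 was at 85.0, 89.8, 88.9 and 84.8 CPM untrained and 74.2, 72.3, 75.2 and 71.3 CPM trained (−0.25, SE 0.08), and shares its strand with CG4991. CG3436 had the lowest p of all features, 0.000361 unadjusted. It was at 28.4, 36.6, 26.8 and 26.0 CPM untrained and 22.1, 23.3, 25.6 and 22.4 CPM trained (−0.33, SE 0.08), overlaps ND-15 by its end on the same strand, and was at −0.21 without untrained replicate 2. Leaving out that library gave −0.26 for mth and −0.24 for CG16700. Because low p and lack of overlap in these 8 libraries chose the genes, their narrow groups are descriptions too.

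The 95% interval of each log2 fold change states what the 8 libraries could show for 1 gene. It lay within 2-fold in either direction for 9294 of 12939 features (71.8%) and within 1.5-fold for 7360 (56.9%). Precision followed abundance. Among features under 1 CPM 13.8% had an interval within 2-fold, from 1 to 5 CPM 55.9%, from 5 to 20 CPM 85.3%, from 20 to 100 CPM 94.3% and at 100 CPM and over 95.7%. A feature that differed alone would have needed a typical change of 15.0-fold, 3.24-fold, 1.66-fold, 1.47-fold and 1.52-fold in those classes to reach an edgeR adjusted p of 0.05. Family medians of 0.1 to 0.3 on the log2 scale are smaller than that. Within the families, 82 of 85 cytosolic ribosomal genes, 32 of 34 genes of complex I and 29 of 31 sarcomere genes had an interval within 2-fold. Fewer did among odorant-binding protein genes (17 of 38), the Turandot list (1 of 5) and antibacterial peptide genes (0 of 12). The 1 on the Turandot list was Socs36E (−0.21 to 0.45), which is not a Turandot gene. The share was 11 of 17 for Toll effectors and 18 of 22 for heat shock genes and chaperones.

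**Figure D5:**
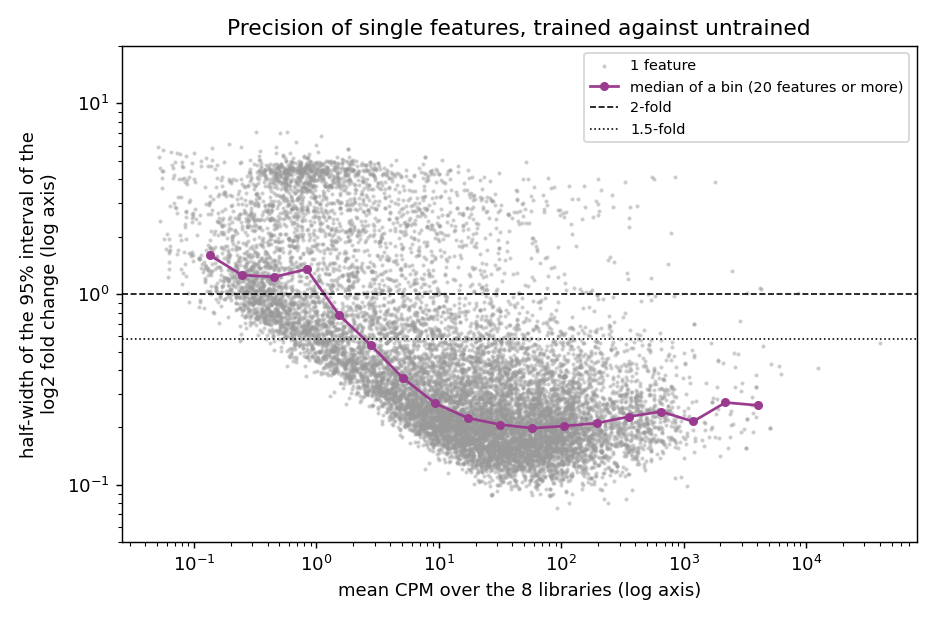
Width of the 95% interval of the log2 fold change on either side (y axis, log axis) against mean level over the 8 libraries (x axis, CPM, log axis). Each grey point is 1 feature, the joined points are medians of classes of abundance, and the horizontal lines mark 2-fold and 1.5-fold. Most features over 5 CPM lie below the 2-fold line.

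The same training was given to Hsp70-null flies, whose libraries share none with those above. There 6 features were called (0.0464%; 10 with the replicate number as a block over all libraries), with 308 lower (2.38%) and 372 higher (2.88%) at an unadjusted p under 0.05 and 45.3% of all features below 0. The interaction of strain and training, which tests whether the responses differ, gave 0 calls in edgeR (0% of features), 465 features at an unadjusted p under 0.05 and 38 calls in DESeq2. Complex I had a median of −0.13 in Hsp70-null flies (32 of 34 below 0), complexes II to V −0.14 (36 of 37) and the TCA cycle −0.16 (17 of 19), beside −0.20, −0.20 and −0.13 in w1118. The median deviation of complex I in Hsp70-null replicates 1 to 4 was 0.27, 0.12, −0.15 and −0.04 untrained. It was −0.30, 0.06, 0.01 and 0.01 trained. The Hsp70-null groups overlapped for each of these lists, and trained replicate 1 was the lowest library in each. In Hsp70-null flies the cytosolic ribosome had a median of 0.02 (29 of 85 below 0), glutathione transferases 0.05 (10 of 35), cytochrome P450 genes 0.13 (18 of 80) and odorant-binding proteins −0.01 (19 of 38). The Turandot list was at −0.13 (4 of 5), which is the value of Socs36E. Its Turandot genes were at −0.39 (TotA), −0.59 (TotC), −0.06 (TotX) and 0.93 (TotM). The medians of these 5 lists were −0.23, −0.15, −0.12, −0.28 and −1.37 in w1118. The last is the value of TotA, so the Turandot medians of the 2 strains are values of different genes. Gene by gene, w1118 was at −1.37 (TotA), −2.47 (TotC), −0.86 (TotX), −3.97 (TotM) and 0.12 (Socs36E). Whether any of these families differed between the strains was not tested, and edgeR called no member of them for the interaction.

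After 2 h of exercise at day 7, a comparison of other w1118 libraries that called 52 features (0.402%), the cytosolic ribosome had a median of 0.15 (0 of 85 below 0), complex I 0.15 (0 of 34) and heat shock genes and chaperones 0.17 (5 of 22). Glutathione transferases were at 0.02 and cytochrome P450 genes at 0.05. Over all features of that comparison 6345 of 12939 lay below 0, with a median of 0.00. The ages and the time since exercise differ from those of training, so the values stand side by side only.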

How the data were processed

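RNA of male legs was sequenced from 40 pools (10 groups of 4), per the labels' protocols as polyadenylated RNA in strand-specific libraries. The authors deposited a table of whole-number read counts for 23932 features, with no normalization. The submitters' processing notes name HISAT2 2.1.0, kallisto 0.44.0 and the build BDGP6; the counting tool and annotation are not given in the sources used here. All columns matched a sample title.

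One fit with the quasi-likelihood test of edgeR 4.0.16 (R 4.3.3; TMM normalization, expression filter by group) was made to the counts of 40 libraries, with a mean per group and 30 residual degrees of freedom, which kept 12939 features. Benjamini-Hochberg adjustment ran over all of them. DESeq2 1.42.0 was an alternative. Each SE was taken as the size of the log2 fold change over √F, and 95% intervals from the t quantile. Levels are CPM on the scaled library size. A family's value is the median over its tested genes, and its level in a library is the median deviation from each gene's mean over the 8 libraries. The code was tested on simulated data. Coordinates are from Ensembl BDGP6.54, matched by identifier for 23851 features. Reads have no molecular identifiers. Features overlapping on 1 strand and near-identical gene copies may share reads and are uncertain.

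The members and lists were chosen with earlier results of these data known. Named genes are, by rule, any feature called, 8 in each direction by p among those with a mean of 5 CPM and no overlap, and the most abundant member of each family; others were chosen after their values were seen.

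Replicates of a group differed by more than counting noise (chi-square per degree of freedom 51.2 to 153 in 12 pairs). Nothing in the labels says that replicate numbers mark shared batches. The deviations of same-numbered trained and untrained libraries had r over genes of 0.73, 0.40, 0.10 and 0.30 for numbers 1 to 4. Unlike-numbered pairs ran from −0.60 to 0.36. For numbers 3 and 4 some of these exceeded the same-numbered pair (untrained 3 with trained 4 at 0.34, untrained 4 with trained 3 at 0.33). Fits with the number as a block were compared. Pools are separate samples per the labels.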

Additional observations from a re-analysis of the deposited data

Results flagged for a closer look

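Among 156 sets of 4 libraries (families and named genes, trained or untrained), 15 had a highest or lowest library whose gap to the next exceeded Dixon's 95% critical value, as a share of the whole range, where chance gives about 1 in 20. Untrained replicate 2 was the lowest for muscle calcium handling (median deviation −0.065), ear (15.4 CPM) and rhea (639.6 CPM), and the highest for CG5767 (0.128 CPM), Naxd (24.2 CPM), mt:CoI (19114 CPM) and Atg8a (507 CPM). Untrained replicate 1 was the lowest for mAcon1 (2247 CPM) and Octbeta2R (54.1 CPM) and the highest for TotA (702 CPM), and untrained replicate 4 was the lowest for Cyp4g1 (3034 CPM). Among trained libraries, replicate 4 was the lowest for heat shock genes and chaperones (median deviation −0.10) and the highest for ear (26.3 CPM), replicate 2 the highest for crc (1082 CPM) and replicate 1 the lowest for SNF4Agamma (310.1 CPM).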

How the results depend on the processing

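The count of calls was 0 under every edgeR alternative and 5 in DESeq2. Features at an unadjusted p under 0.05 numbered 837 (647 expected with no difference). There were 354 in the 8 libraries alone and 374 there with the replicate block (560 expected in both). The block over all libraries gave 802 (647 expected) and no filter gave 1268 (1076 expected). Without both trained replicate 1 and untrained replicate 2 (chosen after seeing the data) there were 176 (655 expected). With 1 library left out the count ran from 290 (without untrained replicate 2) to 1630 (without untrained replicate 1), with 684 expected in both. It was 340 when the first trained pool was dropped (656 expected). The count was 1522 without the third trained pool and 1431 without the fourth untrained pool (684 expected in both). The replicate block changed no other call. DESeq2 called 38 features for the interaction and 138 in Hsp70-null, where the block over all libraries and the removal of libraries over 5 times the median testis sum gave 10 each. Family medians moved by more than 1 SD between pools for complex I (−0.015 without both libraries), the clock (0.021 without both, 0.024 to 0.16 with 1 left out) and calcium handling (−0.077 to 0.062 with 1 left out). On total counts the log2 ratio of summed levels was 0.024 for aminoacyl-tRNA synthetases, −0.0049 for the unfolded protein response and 0.052 for the V-ATPase. The cause was not tested. Signs turned for uncalled genes near 0. Without both libraries the log2 fold changes were mRpS5 (0.089), GluProRS (−0.0044), eEF1alpha1 (0.021), mt:CoI (0.066), Ald1 (0.049), GlyP (0.0024), Mhc (−0.078), crc (0.0020), Atg8a (0.070), Cyp4g1 (0.15), Men (0.017), rhea (−0.026). With testis and gut sums as covariates they were eEF1alpha1 (0.00085), Atg8a (0.0081), CG13868 (0.0020). Without libraries over 3 times the median testis sum (chosen after seeing the data) they were Atg8a (0.0022), Cyp4g1 (0.096). Vha16-1 was at 0.00068 in the 8 libraries alone and 0.00051 with no filter. With 1 library left out the ranges were mRpS5 (−0.17 to 0.12), GluProRS (−0.016 to 0.13), mt:CoI (−0.26 to 0.074), Mhc (−0.11 to 0.14), Hsc70-4 (−0.011 to 0.058), Atg8a (−0.057 to 0.048), Vha16-1 (−0.047 to 0.024), Cyp4g1 (−0.23 to 0.098), AttC (−0.73 to 1.26), CG13868 (−0.098 to 0.071), Octbeta2R (−0.00098 to 0.082), rhea (−0.037 to 0.047). Depth limited features under 1 CPM, of which 13.8% had an interval within 2-fold.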
